A study of Mus musculus with 5 samples.

Results

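Zinc exporters of the Slc30a family and metallothioneins were examined in MIN6 cells that had received vesicles released by muscle. The genes were Slc30a1, Slc30a4, Slc30a5, Slc30a6, Slc30a7, Slc30a8, Slc30a9, Mt1 and Mt2. Their probes were found by the gene name that the array tables give to probes that are not controls, which yielded 10 of 39429 probes and all 9 genes. Slc30a9 had a pair of probes and each other gene had 1. MIN6, established from a mouse insulinoma, secretes insulin and stands in for pancreatic beta cells. The cells had been treated with exosomes purified by ultracentrifugation from the medium of dissected mouse muscle. The donors of the muscle had eaten either standard food (EXO-STD, 2 samples) or a high fat diet (EXO-HP, 3 samples), and each sample was hybridised to its own 1-colour Agilent array. Every sample therefore received muscle vesicles, and cells without vesicles were not analysed here. The labels give no age, sex or strain of the mice, no dose and no duration, and do not say whether the cultures or the vesicle preparations were separate. All p-values thus reflect how far these samples scatter, which may be partly technical.

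Beta cells hold much of their zinc in insulin granules, where it binds insulin hexamers. Slc30a8 (ZnT8) loads zinc into these granules, whereas its paralogs move zinc out of the cytosol at the plasma membrane or into other compartments. Metallothioneins are small, cysteine-rich proteins that buffer zinc. The zinc-sensing transcription factor Mtf1 drives Mt1, Mt2 and Slc30a1 through metal response elements when cytosolic zinc is high.

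None of the 9 genes passed the test of a difference between the groups. The difference was larger than the within-group SD for Slc30a4 (-0.13 against an SD of 0.09) and Slc30a8 (0.14 against 0.12), and smaller for each of the others. With limma, 0 of 9 passed an adjusted p of 0.05, as did 0 of 31964 tested probes (0%). At an unadjusted p under 0.05 there were 0 of 9, against 1787 of all tested probes (5.59%). Log2 fold changes, EXO-HP minus EXO-STD, lay between -0.21 and 0.14, with a median of -0.05 against 0.07 for all tested probes. The EXO-HP and EXO-STD arrays overlapped for each of the 9 genes. They did not overlap for 17.8% of all tested probes, and 9 genes are too few to be told apart from that share. The widest 95% interval, that of Mt2, ran from 0.539-fold to 1.73-fold, and the narrowest, that of Slc30a4, from 0.656-fold to 1.27-fold. All 9 genes were well above background on all 5 arrays, and each member probe had 1 spot per array, none of which was flagged as an outlier.

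Levels are given as normalised log2 signal, the log2 of the processed spot intensity minus the 75th percentile of the same array. Probes differ in how strongly they hybridise, so the level of 1 gene is not set against that of another. Slide 1 carried both EXO-STD arrays together with replicate 1 of EXO-HP, and slide 2 carried EXO-HP replicates 2 and 3. Spots well above background made up 71.8% to 74.0% on slide 1, against 91.6% and 81.6% on slide 2. Only slide 1 held both groups, so on slide 2 the slide and the vesicles cannot be told apart. The beta cell markers Ins1, Ins2, Iapp, Pdx1, Nkx6-1, Mafa, Slc2a2, Pcsk1 and Ucn3 were well above background on every array. Of 8 skeletal muscle markers, 4 to 8 per array were well above background, and of 5 fibroblast markers 2 to 5, with the most in both lists on EXO-HP replicate 2. Of 3 alpha cell markers 2 were well above background on every array, of 2 delta cell markers 1 or 2, and of 3 measured macrophage markers 2. The part of other cell types in the values of the zinc genes was not tested.

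The sequences upstream of Mt1, Mt2 and Slc30a1 are shown because these genes share a known regulator, Mtf1. Each is the 250 bases before the annotated start, 5′ to 3′, from RefSeq on GRCm38.p6, plus strand. Capitals mark the core of a metal response element, searched as TGCACNC and TGCGCNC on both strands, and no matches overlapped in these sequences. Mt1 lies at chr8:94178839-94179088, Mt2 at chr8:94172368-94172617 and Slc30a1 at chr1:191906531-191906780.
Mt1: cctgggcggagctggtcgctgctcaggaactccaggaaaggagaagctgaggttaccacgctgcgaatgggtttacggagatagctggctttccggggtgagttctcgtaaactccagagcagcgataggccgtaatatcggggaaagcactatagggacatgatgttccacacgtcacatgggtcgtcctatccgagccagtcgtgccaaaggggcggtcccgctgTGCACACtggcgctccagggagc
Mt2: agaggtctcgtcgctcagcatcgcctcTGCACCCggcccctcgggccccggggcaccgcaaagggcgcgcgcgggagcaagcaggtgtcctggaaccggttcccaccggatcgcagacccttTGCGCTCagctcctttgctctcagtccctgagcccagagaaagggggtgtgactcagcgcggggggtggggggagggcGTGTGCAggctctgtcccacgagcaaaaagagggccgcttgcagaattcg
Slc30a1: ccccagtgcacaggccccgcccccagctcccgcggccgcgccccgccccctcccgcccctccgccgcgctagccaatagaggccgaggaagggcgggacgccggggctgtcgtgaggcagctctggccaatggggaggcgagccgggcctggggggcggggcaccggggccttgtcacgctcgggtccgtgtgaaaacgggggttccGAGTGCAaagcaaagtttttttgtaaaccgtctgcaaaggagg

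The Mt2 sequence held 3 matches, a number that 0.77% of the 32851 promoters of this length in the table reached or exceeded. They lay 223 to 217, 128 to 122 and 50 to 44 bases before the start, the last on the minus strand. Mt1 had 1 match at 23 to 17 bases before its annotated start, and Slc30a1 had 1, on the minus strand, at 43 to 37 bases. At least 1 match was present in 21.4% of all promoters, so a single match is common. In the 50 bases after the start, which are not printed, matches that began there or spanned the start numbered 2 for Mt1, 1 for Mt2 and 1 for Slc30a1. Among the other exporters, Slc30a4 had 2 matches and Slc30a5 had 1, and none was found for Slc30a6, Slc30a7 and Slc30a9. Of the 9 genes, 8 had a promoter in the table and 5 of these had a match. Slc30a8 had no entry. The window before the annotated start of Mt1 may not cover all metal response elements known for this gene, so its number of matches is not set against that of Mt2. Outside the 9 genes, Mt3 had 0 matches and Mt4 had 1. A match is a stretch of letters and not evidence of binding, and other start sites were not examined. Whether the array patterns of Mt1, Mt2 and Slc30a1 differ, and whether the matches bear on them, was not tested.

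Slc30a8, the zinc transporter of the insulin granule, varied little. It read 5.13 and 5.28 in EXO-STD and 5.31, 5.25 and 5.48 in EXO-HP. EXO-HP replicate 2 lay below EXO-STD replicate 2, and the highest value belonged to EXO-HP replicate 3. The means were 5.20 ± 0.11 (SD, n = 2) and 5.35 ± 0.12 (SD, n = 3), a log2 fold change of 0.14 ± 0.20 (SE) with a 95% interval from -0.35 to 0.63. On the linear scale the interval ran from 0.785-fold to 1.55-fold. The value was -0.03 with median scaling, under which the median of all tested probes moved from 0.07 to -0.10, and 0.30 in the deposited value table. The within-group SD of 0.12 was smaller than that of 90.7% of tested probes. This small spread depended on the scaling. The SE, 0.20 here, was 0.31 with quantile normalisation and 0.28 in the deposited value table. Its probe lies on chromosome 15 at 52167214 to 52167273 (mm9).

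**Figure D1:**
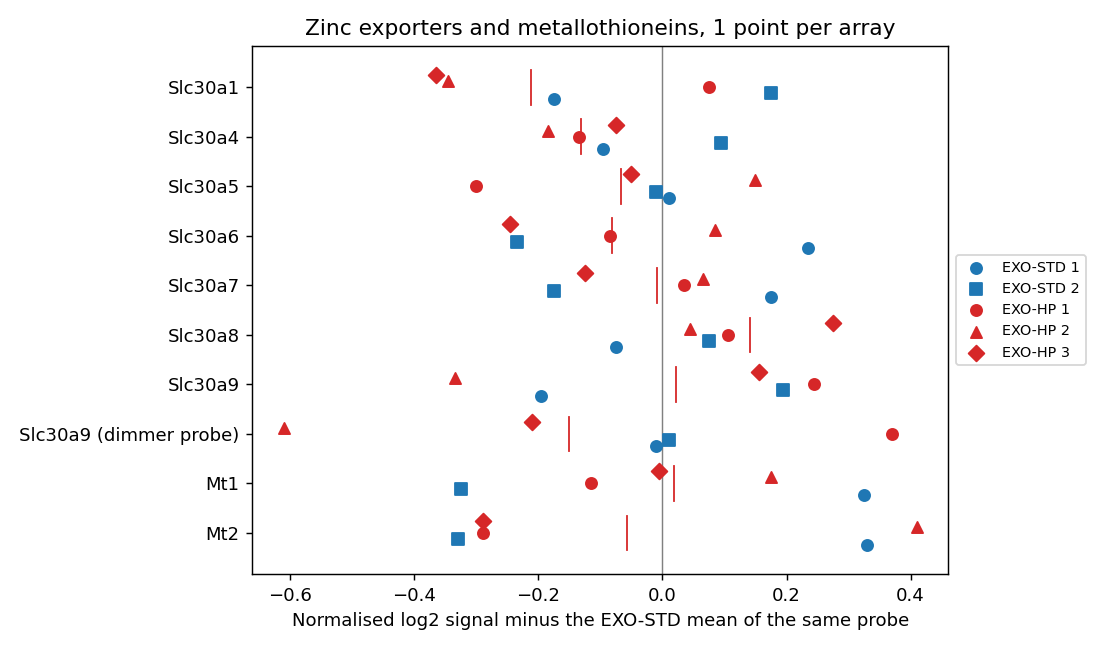
Normalised log2 signal of each zinc exporter and metallothionein probe on each array, minus the EXO-STD mean of the same probe (x axis, log2 units). Blue points are the 2 EXO-STD arrays, red points the 3 EXO-HP arrays and short red bars the EXO-HP means; the groups overlap for every gene, and Mt1 and Mt2 have EXO-STD arrays 0.65 and 0.66 apart.

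Among the paralogs, Slc30a1, the zinc exporter of the plasma membrane, had the lowest fold change. It read -0.58 and -0.23 in EXO-STD and -0.33, -0.75 and -0.77 in EXO-HP. Both arrays of slide 2 lay below all arrays of slide 1, as for 6.04% of all tested probes. The log2 fold change was -0.21 ± 0.24 (SE, 95% interval -0.82 to 0.40, limma adjusted p = 1.00). Within slide 1 alone (slide as a block) it was 0.08. The probe lies on chromosome 1 at 193736760 to 193736819 (mm9).

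Slc30a4, which loads endosomes and other vesicles, and Slc30a5 and Slc30a6, which form a heterodimer in the early secretory pathway, had fold changes closer to 0. Slc30a4 read 2.36 and 2.55 in EXO-STD and 2.32, 2.27 and 2.38 in EXO-HP. One EXO-HP array, replicate 3, exceeded EXO-STD replicate 1 by a small margin, and the log2 fold change was -0.13 ± 0.19 (SE). Slc30a5 read 1.52 and 1.50 in EXO-STD and 1.21, 1.66 and 1.46 in EXO-HP. The EXO-STD arrays fell inside the range of the EXO-HP arrays, and its log2 fold change was -0.07 ± 0.22. Slc30a6 read -1.24 and -1.71 in EXO-STD and -1.56, -1.39 and -1.72 in EXO-HP. Its EXO-STD replicates stood 0.46 apart, more than the 0.33 spanned by EXO-HP, and the log2 fold change was -0.08 ± 0.24. The partners of the heterodimer had different orders over the arrays, with EXO-HP replicate 2 highest for Slc30a5 and EXO-STD replicate 1 highest for Slc30a6.

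Slc30a7, a transporter of the Golgi apparatus, gave -0.19 and -0.54 in EXO-STD and -0.33, -0.30 and -0.49 in EXO-HP. All EXO-HP arrays lay between the EXO-STD replicates, and the log2 fold change was -0.01 ± 0.21 (SE, 95% interval -0.54 to 0.52). Slc30a9, a mitochondrial member of the family, had fold changes of opposite sign on its probes. The brighter one, on chromosome 5 at 67746213 to 67746272, read 0.04 and 0.43 in EXO-STD and 0.48, -0.10 and 0.39 in EXO-HP, with a log2 fold change of 0.02 ± 0.27. The dimmer one, on chromosome 5 at 67737373 to 67737432, read -2.17 and -2.15 in EXO-STD and -1.79, -2.77 and -2.37 in EXO-HP, with -0.15 ± 0.33. On both Slc30a9 probes EXO-HP replicate 1 was the highest array and EXO-HP replicate 2 the lowest. The dimmer probe spanned 0.99 within EXO-HP, the widest range within that group among the 10 probes, and both arrays of slide 2 lay below all arrays of slide 1. Within slide 1 its value was 0.37.

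The change of Slc30a8 was set against that of the 6 paralogs among the 9 genes, within each array, which is unaffected by a constant added to all values of an array. Each gene was first expressed as its deviation from its own EXO-STD mean, and the mean deviation of the paralogs was then subtracted from that of Slc30a8. The result was -0.07 and 0.07 in EXO-STD and 0.13, 0.14 and 0.40 in EXO-HP, on a log2 scale. EXO-HP exceeded EXO-STD by 0.22, with a within-group SD of 0.14, and EXO-HP replicate 3 supplied the largest value. Without that array the difference was 0.14. It was 0.13 within slide 1, 0.40 with normexp background correction and 0.44 in the deposited value table. No test is given for this value, because the genes were chosen with results of these arrays known. The paralogs Slc30a2 and Slc30a3, outside the 9 genes, were left out of it. Their log2 fold changes were 0.20 ± 0.24 and 0.39 ± 0.82 (SE). Slc30a3 was well above background on EXO-HP arrays only, and Slc30a10 was not tested.

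The metallothioneins Mt1 and Mt2 differed more within the groups than between them, and the size of this spread depended on the scaling. The SE of Mt1, 0.27 here, was 0.19 with quantile normalisation and 0.19 in the deposited value table. That of Mt2, 0.34 here, was 0.19 and 0.21 in the same order. Mt1 read 6.33 and 5.68 in EXO-STD and 5.89, 6.18 and 6.0 in EXO-HP. All 3 EXO-HP arrays lay between the EXO-STD replicates, which stood 1.57-fold apart. Its means were 6.01 ± 0.46 (SD, n = 2) and 6.02 ± 0.15 (SD, n = 3), a log2 fold change of 0.01 ± 0.27 (SE, 95% interval -0.65 to 0.68). Mt2 read 5.93 and 5.27 in EXO-STD and 5.31, 6.01 and 5.31 in EXO-HP. High values were found on 1 array of each group, EXO-STD replicate 1 and EXO-HP replicate 2, and the other 3 arrays lay close together. The means of Mt2 were 5.60 ± 0.47 (SD, n = 2) and 5.54 ± 0.40 (SD, n = 3), a log2 fold change of -0.05 ± 0.34 (SE, 95% interval -0.89 to 0.79, limma adjusted p = 1.00). Leaving out EXO-STD replicate 1 gave 0.34 for Mt1 and 0.28 for Mt2, and leaving out EXO-STD replicate 2 gave -0.31 and -0.38. The probes of Mt1 and Mt2 lie on chromosome 8, at 96704165 to 96704224 and at 96697371 to 96697430 (mm9). Their accuracy within an array was not measured directly, since each had 1 spot. Probes spotted at least 5 times had a median SD of 0.089 to 0.101 log2 units over the spots of an array (305 probes).

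Relative to the EXO-STD mean, Mt1 stood at 0.33 and -0.33 in EXO-STD and at -0.12, 0.17 and -0.01 in EXO-HP, and Mt2 at 0.33, -0.33, -0.29, 0.41 and -0.29 on the same arrays. Mt3, a metallothionein best known from neurons, stood at 0.40, -0.40, 0.19, 0.52 and 0.06. EXO-STD replicate 1 and EXO-HP replicate 2 were thus the highest arrays for Mt1, Mt2 and Mt3, and EXO-STD replicate 2 was the lowest. Mt4 stood at 0.08, -0.08, 0.21, 0.59 and 0.03 on the same arrays, so EXO-HP replicate 1 exceeded EXO-STD replicate 1. The order was not particular to metallothioneins. The importer Slc39a11, at 0.42, -0.42, -0.23, 0.19 and -0.05, had the same highest and lowest arrays as Mt1, Mt2 and Mt3. Slc30a1 stood at -0.17 and 0.17 in EXO-STD and at 0.08, -0.35 and -0.36 in EXO-HP. Its sign was opposite to that of Mt1 and Mt2 on 4 arrays and the same on EXO-HP replicate 3, where Mt1 was at -0.01. The EXO-STD values of each gene are equal and opposite by construction, so their signs are not independent. The median over 162 probes of ribosomal proteins, components of the translation machinery, was 0.32 and -0.32 in EXO-STD and -0.29, 0.30 and -0.29 in EXO-HP. Mt2 lay within 0.11 of these medians on every array. Over bright spots, the deposited values had a slope on log2 signal of 0.961 for both EXO-STD replicate 1 and EXO-HP replicate 2. The slope was 1.04 for EXO-STD replicate 2, 1.03 for EXO-HP replicate 1 and 1.02 for EXO-HP replicate 3. Whether the metallothionein values share a source with the ribosomal medians or with these slopes was not tested. The change of Mt1 relative to Mt2 was 0.17, -0.24 and 0.28 on the EXO-HP arrays, which was not tested.

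**Figure D2:**
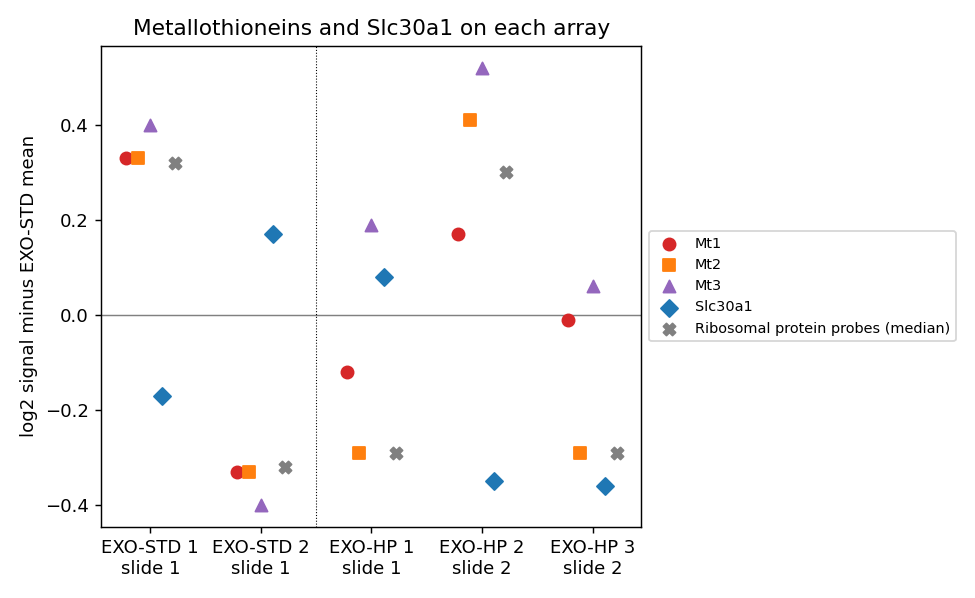
Log2 signal minus the EXO-STD mean (y axis) on each of the 5 arrays (x axis, with the slide) for Mt1, Mt2, Mt3 and Slc30a1 and for the median of 162 ribosomal protein probes. Mt1, Mt2, Mt3 and the ribosomal median are high on EXO-STD replicate 1 and EXO-HP replicate 2, where Slc30a1 is at -0.17 and -0.35.

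The genes whose array pattern was nearest to that of Slc30a8 were Tyms, thymidylate synthase, Plcg2, a phospholipase C, and Col4a3bp, a ceramide transfer protein. Likeness was the root mean square difference of log2 values over the 5 arrays, each gene centred on its own mean, and it was 0.017, 0.018 and 0.020. Because Slc30a8 itself varied by only 0.115 about its mean, 897 of 14280 genes came within 0.1 of its pattern. For Mt1, which varied by 0.226, the nearest were Coasy, the coenzyme A synthase, at 0.023, Engase at 0.023 and Kdelr3, a KDEL receptor, at 0.024. Within 0.1 of the pattern of Mt1 lay 316 genes. With 5 arrays such nearness is a description only.

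Other zinc genes were taken from lists of 14 importers, 5 remaining exporters and metallothioneins, and 6 genes of zinc sensing and granule content. Of these 25 genes, 23 were tested, and 0 passed the adjusted threshold. Their fold changes were above 0 for 18 and below 0 for 5, against 20074 and 11890 of all tested probes, with a median of 0.14. Among the 18 were Slc30a3, Gpr39 and Mtf1, 3 genes that passed the filter on dim probes through EXO-HP alone, so these counts support no direction. The Slc39a importers, which bring zinc into the cytosol, had 9 values above and 4 below 0 among 13 tested, with a median of 0.06. Slc39a12 and Slc30a10 were not tested, because neither group had 2 arrays on which they were well above background. Of the 23 tested genes, 1 had an unadjusted p under 0.05 with limma, against 1787 of all tested probes (5.59%). Such a count cannot be told apart from that share.

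That gene was Slc39a2 (ZIP2), a zinc importer with a dim signal here. It read -3.71 and -3.76 in EXO-STD and -3.07, -2.76 and -2.69 in EXO-HP. Every EXO-HP array lay above both EXO-STD arrays, as for 15.1% of tested probes. Both arrays of slide 2 also lay above all arrays of slide 1, as for 20.2% of tested probes. The log2 fold change was 0.89 ± 0.21 (SE, 95% interval 0.36 to 1.42), and with limma its unadjusted p was 0.00665 and its adjusted p 0.886, so it did not pass. Within slide 1 it was 0.66, and the adjusted p over the alternatives ranged from 0.156 to 1.00. Slc39a6, another importer, lay lower on every EXO-HP array (3.12 and 3.16 against 3.07, 2.91 and 2.97), as for 2.76% of tested probes, with -0.16 ± 0.19. On both arrays of slide 2 Slc39a6 lay below all arrays of slide 1, as for 6.04% of tested probes. Within slide 1 the value of Slc39a6 was -0.07. The widest importer interval belonged to Slc39a5, from -2.86 to 1.63, whose arrays spanned 2.75 with 1 of 5 not well above background.

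**Figure D3:**
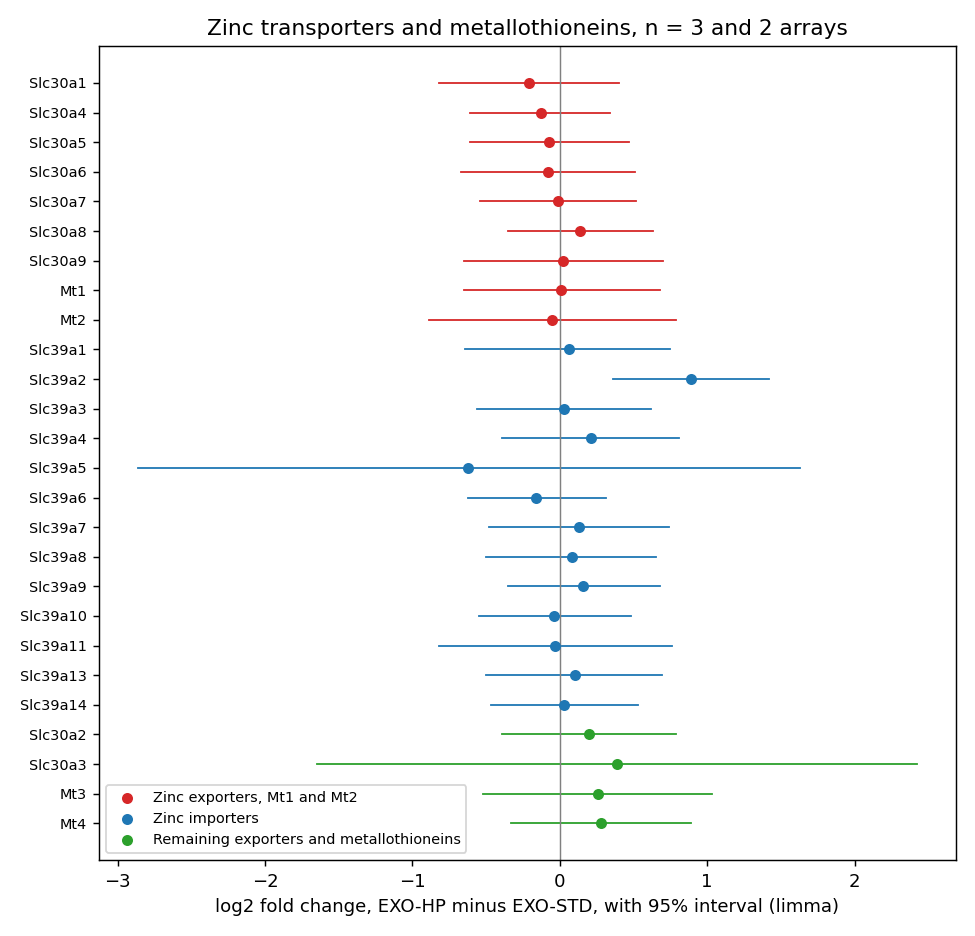
Log2 fold change of EXO-HP (n = 3) minus EXO-STD (n = 2) with its 95% interval from limma (x axis) for the 9 genes (red), 13 zinc importers (blue) and 4 remaining exporters and metallothioneins (green). Every interval spans 0 except that of Slc39a2, which runs from 0.36 to 1.42 and did not pass after adjustment.

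Mtf1, the zinc sensor upstream of the metallothioneins, had tested probes that disagreed. The brighter one read -0.51 and -8.15 in EXO-STD and -0.20, -0.46 and 0.22 in EXO-HP. The low reading came from a spot that was not well above background on EXO-STD replicate 2, and the log2 fold change was 4.18 ± 2.10 (SE). Without that array it was 0.36. The other probe read -2.78 and -2.49 in EXO-STD and -2.73, -2.57 and -2.43 in EXO-HP, with a log2 fold change of 0.06 ± 0.21 (SE). Gpr39, a zinc-sensing receptor near the detection limit, had 0.40 ± 0.21, and was -0.10 with quantile normalisation. The granule cargo genes Ins1, Ins2 and Iapp, whose products share the granule with the zinc that Slc30a8 brings in, were higher on all 3 EXO-HP arrays than on both EXO-STD arrays, with 0.14 ± 0.18, 0.32 ± 0.18 and 0.25 ± 0.19, as for 15.1% of tested probes, and did not pass. With median scaling the values were -0.03, 0.15 and 0.07, and Ins1 was -0.03 in the deposited value table. For Ins1, both arrays of slide 2 also lay above all arrays of slide 1, as for 20.2% of tested probes. Slc30a8 had a similar fold change of 0.14 but overlapping groups; the difference between Slc30a8 and these genes was not tested.

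**Figure D4:**
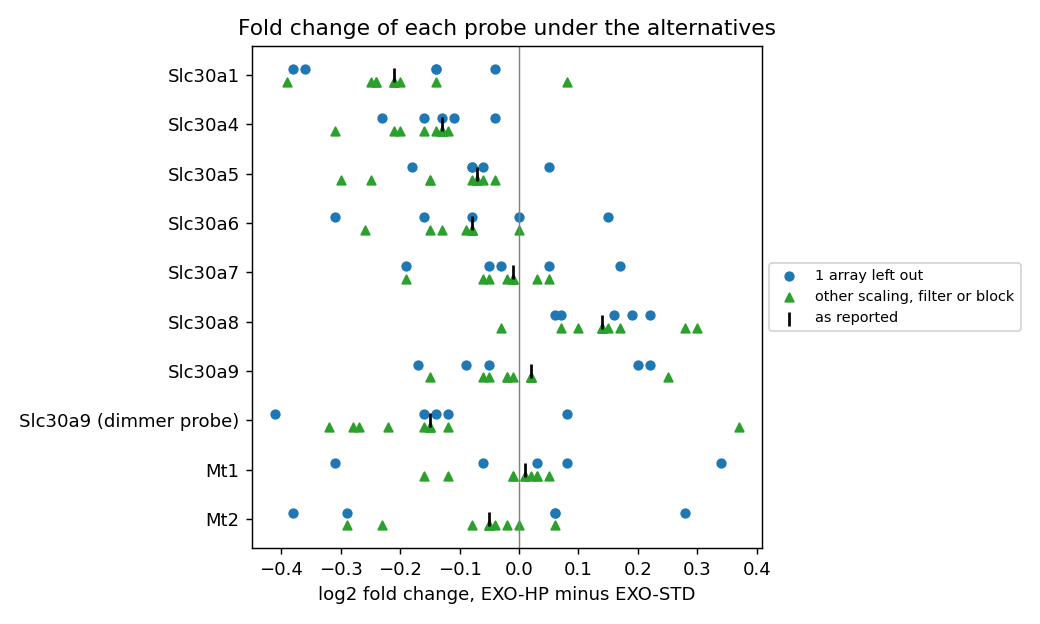
Log2 fold change of each probe (x axis) as reported (black bar), with 1 array left out (blue circles) and under another scaling, background correction, filter or block (green triangles). Values of Mt1 run from -0.31 to 0.34 and those of Slc30a8 from -0.03 to 0.30.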

How the data were processed

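RNA of 5 MIN6 samples was measured on 1-colour (Cy3) Agilent arrays, 1 per sample. The scanner tables hold spot intensity values, which, per the file headers, Feature Extraction 10.7.3.1 background-subtracted and detrended within each array, and replaced by surrogates where a spot was not above background. Version 9.1 of that program and limma are named in the submitters' processing notes. The deposited value table holds log2 values with the same median, 7.93, on each array. Within each array its ranks equalled those of mean signal minus local background (Spearman rho = 1), and over bright spots its slope on the log2 of that signal was 0.961 to 1.04. Its sorted values differed between arrays by at most 0.00249, as after quantile normalisation. It served as an alternative.

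Log2 processed signals were averaged per probe without outlier spots, and the 75th percentile of the array was subtracted. Probes incomplete on some array (110) or well above background on fewer than 2 arrays of either group (7355) were left out, and 31964 were fitted with limma 3.58.1 in R 4.3.3 (EXO-HP minus EXO-STD, no covariates, Benjamini-Hochberg adjustment, 3 residual and 2.59 prior degrees of freedom). The smallest p that an exact 2-sided rank test can give with these group sizes is 0.2. The fit was tested on simulated data. Saturated spots numbered 0. The number of arrays limits the precision.

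For a gene with several probes, the one with the highest mean signal stands for it. Gene names are those of the array tables, and the accessions of all 10 member probes matched the same symbols in RefSeq (GRCm38.p6). Probe positions are on mm9, per the file headers, without exon annotation. The genes and lists were chosen with earlier results of these data known, and a further beta cell marker of the list is not reported here. Besides the 9 genes, the rule named zinc genes well above background on all 5 arrays whose groups did not overlap, those with the 4 smallest p, and the 3 nearest patterns for Slc30a8 and Mt1. Mt3, Mt4, Slc39a5, Slc39a11, Slc39a12, Slc30a10 and the ribosomal proteins were chosen after values were seen. Alternatives were background correction, scaling, filter, outliers, probe choice, slide, the replicate number as a block, the deposited table and leaving out each array.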

Additional observations from a re-analysis of the deposited data

How the results depend on the processing

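None of the 9 genes passed the adjusted threshold under any of the 16 alternatives (smallest adjusted p of a member probe with limma, 0.855). Of 151 recomputed fold changes of the 10 member probes, 32 had the other sign, and none exceeded 0.41 in size. Over all tested probes, 0 to 3 were called when 1 array was left out, with 3 only without EXO-STD replicate 1, and 0 in the others. Slc30a8 relative to its paralogs was 0.40 with normexp and 0.44 in the deposited value table; leaving out arrays gave 0.14 to 0.29.

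The other sign was found with slide as a fixed block for Slc30a1 (0.08), Slc30a7 (0.03), Mt1 (-0.12), the dimmer Slc30a9 probe (0.37) and the second Mtf1 probe (-0.10). Median scaling gave -0.03 for Slc30a8, -0.15 for Slc30a9, -0.16 for Mt1, -0.03 for Ins1 and -0.12 for the second Mtf1 probe. Normexp gave -0.02 for Slc30a9 and -0.01 for Mt1. Quantile normalisation gave 0.00 for Mt2, -0.10 for Gpr39 and -0.08 for the second Mtf1 probe. The deposited table gave -0.02 for Slc30a9, -0.01 for Mt1, 0.00 for Gpr39, -0.03 for Ins1 and -0.11 for the second Mtf1 probe. Slc30a9 had -0.01 with slide as a random block and -0.06 as the mean of its probes. The causes were not tested.

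The labels do not say whether the replicate numbers pair the samples. Deviations of same-numbered samples from their group means correlated at 0.03 and -0.05 across probes. These values cannot decide it, because the deviations of the EXO-STD arrays mirror each other and EXO-HP replicates 1 and 2 lie on different slides. With the replicate number as a block, 0 probes were called, and values with the other sign were 0.00 for Slc30a6, 0.05 for Slc30a7, -0.05 for Slc30a9, 0.06 for Mt2 and -0.01 for the second Mtf1 probe, while Slc30a8 relative to its paralogs was 0.14.

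With 1 array left out, where a lone EXO-STD sample is assumed to vary like the EXO-HP samples, values ran from -0.31 to 0.34 for Mt1, -0.38 to 0.28 for Mt2, -0.14 to 0.65 for Mt3, -0.18 to 0.05 for Slc30a5, -0.31 to 0.15 for Slc30a6, -0.19 to 0.17 for Slc30a7, -0.17 to 0.22 and -0.41 to 0.08 for the brighter and dimmer probes of Slc30a9, and -0.08 to 0.20 for the second Mtf1 probe. Slc39a5 and Slc30a3, neither well above background on all 5 arrays, had wide intervals (-2.86 to 1.63 and -1.65 to 2.42).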
